A study of Homo sapiens with 8 samples.

Results

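CRBN and 6 genes tied to it by earlier work were followed at the RNA level in Hct116, a human colorectal carcinoma line, exposed for 16 h to lenalidomide at 30 μM or to the matching amount of its solvent DMSO. The genes are CRBN itself, the pair BSG and SLC16A1, the related transporters SLC16A3 and SLC16A7, and the substrates MEIS2 and GLUL. They were picked by symbol and not by a value in the counts, but with earlier results of these data known. All 7 were found among the 23459 genes of the count table. Each treatment had 4 libraries of total RNA, which the series calls biological replicates, and no label names an engineered allele. The RNA came from the cells that were split for mass spectrometry, and for those the methods speak of technical replicates, so the sources differ on the kind of replicate and p-values measure the spread between these samples, which may be technical. The medium is labelled as DMEM with serum and L-glutamine, whereas the methods give a DMEM for isotope labelling of proteins that was exchanged for one with heavy amino acids when the drug was added. Of the 4 replicates, 2 were label swaps, in which the isotopes were reversed, and the labels used here do not say which libraries these were, so the part of the medium in the spread between replicates was not tested.

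Cereblon, the product of CRBN, is the receptor through which the CRL4 ubiquitin ligase (CUL4, RBX1, DDB1) recognizes proteins, and lenalidomide binds to it directly. The drug makes cereblon recruit other proteins for degradation and can at the same time displace its natural ones. Of the natural clients, the homeobox transcription factor MEIS2 and glutamine synthetase (GLUL) have been described as substrates that are ubiquitinated, whereas CD147 (basigin, BSG) and the lactate transporter MCT1 (SLC16A1) have been described as a membrane complex whose maturation cereblon assists as a chaperone. These relations concern proteins. Whether the RNA of the same genes moved with the drug is the question that the counts address, since protein amounts can follow RNA as well as turnover.

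Parts of the coding sequence show where the protein relations lie. The windows below are taken from the GENCODE transcripts on GRCh37, and both genes lie on the minus strand. The first covers codons 1 to 24 of 373 in GLUL, at chr1:182357801-182357872, with the codons of the lysines at positions 11 and 14 in capitals, whose acetylation has been described as the mark that cereblon reads. The second covers codons 376 to 404 of 442 in CRBN, with the codons of the tryptophans at positions 380, 386 and 400 in capitals, which line the pocket that holds the drug. It is joined from an exon part at chr3:3194140-3194162 and one at chr3:3192666-3192729.

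GLUL: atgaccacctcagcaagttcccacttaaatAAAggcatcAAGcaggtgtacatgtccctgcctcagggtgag

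CRBN: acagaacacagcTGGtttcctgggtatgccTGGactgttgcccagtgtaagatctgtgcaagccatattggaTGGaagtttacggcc

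Libraries held between 35268940 and 37473413 counts with DMSO and between 28218471 and 33659982 counts with lenalidomide, so that every lenalidomide library was smaller, and the part of depth in the results was not tested. Levels are given as CPM, the counts scaled to a common library size with TMM factors, except that the marker sums below use raw library totals. Of the epithelial markers EPCAM, KRT8, KRT18, CDH1 and CDH17, the first 4 were expressed and CDH17 was at 0 to 6 counts, and the summed level of the list was 1495 to 1586 CPM with DMSO and 1477 to 1629 CPM with lenalidomide. No gene of the leukocyte list (PTPRC, CD3E, CD79A, CD14) exceeded 6 counts in a library. The summed fibroblast list (COL1A1, COL1A2, COL3A1, DCN) was at 2.72 to 3.42 CPM with DMSO and 2.44 to 3.92 CPM with lenalidomide, and the endothelial list (PECAM1, VWF, CDH5) was at 0.347 to 0.4003 CPM with DMSO and 0.298 to 0.709 CPM with lenalidomide. Differential expression was tested in edgeR (quasi-likelihood, 13925 genes, Benjamini-Hochberg adjustment), and confidence intervals are at 95%.

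None of the 7 genes passed the test for a change. At an adjusted p under 0.05, 0 of 7 were called against 0.0144% of all genes tested. At an unadjusted p under 0.05, 0 of 7 passed against 4.18%, and DESeq2 also gave 0 of 7 at either threshold. The lenalidomide and DMSO values overlapped for each of the 7, while they did not overlap for 2.08% of all genes, 1.24% with lenalidomide above and 0.84% with lenalidomide below. Fold changes lay between -0.077 for GLUL and 0.058 for MEIS2 on the log2 scale, with 4 genes below 0 and 3 above where 51.3% of all genes were above, and the adjusted p was 0.999 for every one. Every 95% confidence interval included 0. Expressed as a change in percent, the lowest bound was -13.5%, for GLUL, and the highest was 14.9%, for MEIS2, so that changes beyond these lie outside every interval. In bulk RNA a change per cell and a change in the number of cells that express a gene cannot be told apart.

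**Figure D1:**
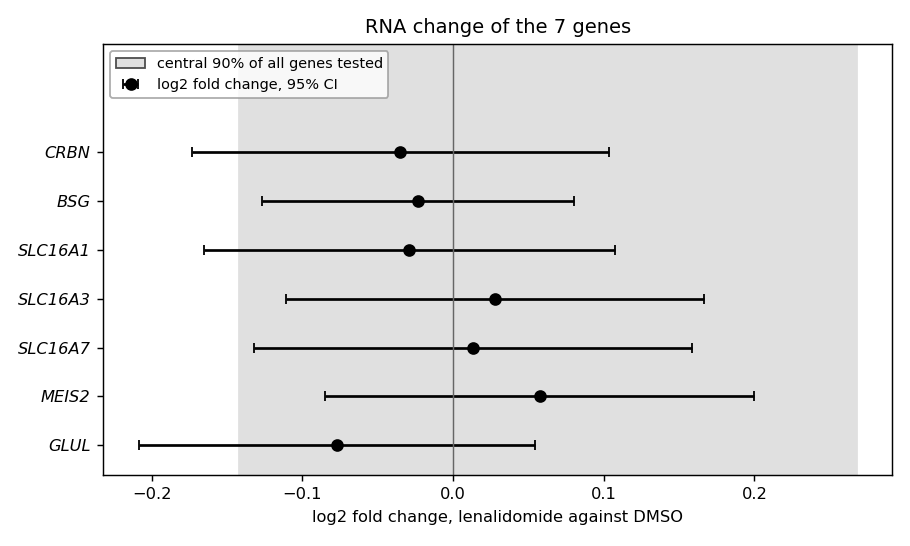
Log2 fold change of lenalidomide against DMSO for each of the 7 genes (points, with 95% confidence intervals from edgeR), and the range that holds the central 90% of all genes tested (grey band, from -0.14 to 0.27). All 7 points lie inside the band and all 7 intervals cross 0.

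The genes differed far more from each other than between treatments. Per kilobase of exonic width, BSG was highest, with a lowest, median and highest level over the 8 libraries of 68.2, 70.4 and 73.4 CPM per kb. SLC16A1 followed at 51.1, 54.0 and 60.5 CPM per kb, and GLUL at 31.5, 35.2 and 39.7 CPM per kb. All 3 were thus well above the middle of the transcriptome, at percentiles 93.4, 91.0 and 85.8 of the genes tested. SLC16A3 had 18.1, 19.7 and 22.4 CPM per kb, and CRBN had 9.26, 9.59 and 10.7 CPM per kb, which placed the drug's receptor at percentile 60.1. MEIS2 (3.03, 3.23 and 3.58 CPM per kb) and SLC16A7 (2.85, 3.18 and 3.42 CPM per kb) were lowest, at percentiles 36.1 and 35.7. By these widths, each gene from BSG down to CRBN lay above the next in every library. The ranges of MEIS2 and SLC16A7 overlapped and gave no order between them. Levels per length, here and below, depend on the exonic widths that came with the counts. Those were 5572 bases for GLUL and 4238 for SLC16A3, whereas the canonical GENCODE transcripts have 7554 and 2599 bases. The order under other lengths was not tested.

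**Figure D2:**
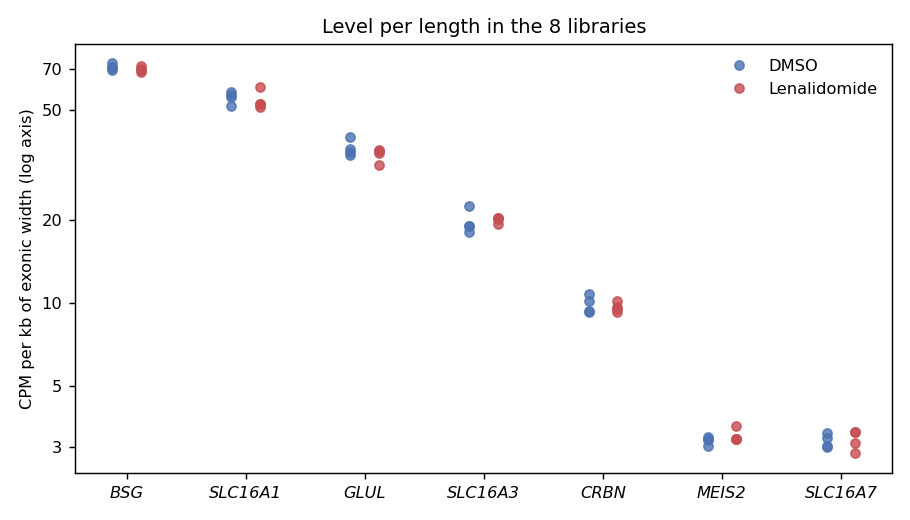
Level of each gene per kilobase of exonic width in the 8 libraries (log axis, CPM per kb, DMSO blue, lenalidomide red, 1 point a library). BSG is highest at 68.2 to 73.4 CPM per kb, and MEIS2 and SLC16A7 share the lowest place.

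CRBN (Entrez gene 51185; chromosome 3 of GRCh37, 3186312 to 3221411) is the gene of the drug's own receptor. It had 24.2, 26.3, 23.99 and 27.9 CPM in DMSO replicates 1 to 4 and 24.6, 26.2, 25.1 and 23.99 CPM in lenalidomide replicates 1 to 4. DMSO replicate 4 was the highest, and all 4 lenalidomide values fell within the range of the DMSO values. Mean CRBN was 25.6 ± 1.83 CPM in the DMSO libraries and 25.0 ± 0.936 CPM in the treated ones (SD, n = 4 per treatment). The log2 fold change was -0.035 with an interval from -0.17 to 0.10. Without DMSO replicate 4 the log2 fold change was 0.0085. In GENCODE the exons of CRBN cover 8052 bases, of which 2865 are shared with exons of TRNT1 on the opposite strand. TRNT1 is the enzyme that adds the CCA end to transfer RNAs. Between the canonical transcripts of both genes the overlap is 0 bases. The counts were made on another gene model, the UCSC known genes, where CRBN is 2591 bases wide. The overlap in that model was not determined. No strand setting is given for the counting, so reads in any shared part cannot be told apart. TRNT1 had a log2 fold change of -0.021 (interval from -0.15 to 0.11).

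The partners of cereblon in the ligase gave the setting for this value. DDB1, the adaptor that holds cereblon, had a level of 79.6 CPM per kb, far above CRBN. The ratio of CRBN to DDB1 per length was 0.115, 0.129, 0.113 and 0.134 in DMSO replicates 1 to 4, and 0.1201, 0.124, 0.123 and 0.123 in lenalidomide replicates 1 to 4. The lenalidomide ratios lay within the range of the DMSO ratios and were closer together. The mean log2 ratio differed by 0.0010 (two-sided exact permutation test over 70 splits, p = 1, and 1 after adjustment over the 5 ratios tested). The range of all 16 differences between a lenalidomide and a DMSO library, an exact 97.1% interval, ran from -0.16 to 0.14. Here and below, this interval is exact for a common shift of all values and does not belong to the difference of the means.

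Of the 10 genes listed for the ligase and its enzymes, 0 passed the adjusted threshold and 9 had a log2 fold change below 0, with a median of -0.044 against 0.0025 over all genes tested. RBX1, the RING subunit that binds the E2 enzyme, was the only one with an unadjusted p under 0.05 (adjusted p = 0.999 by edgeR), where 0.919% of all genes were lower at that threshold. It had 22.3, 24.4, 20.5 and 25.5 CPM in DMSO replicates 1 to 4 and 21.2, 19.7, 21.5 and 19.1 CPM with lenalidomide. The groups overlapped through DMSO replicate 3, which lay below lenalidomide replicates 1 and 3. The log2 fold change of RBX1 was -0.19 (standard error 0.076). The scaffold CUL4A was at -0.067 and the ligase subunit DDA1 at -0.056. UBE2D3, an E2 enzyme at 127 CPM per kb, was at -0.051, and CAND1, which exchanges cullin receptors, was at -0.0025.

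Of 5 other proteins reported to bind cereblon, 4 could be tested and 0 passed, at a median log2 fold change of -0.058. PRKAA1, the catalytic AMPK subunit, was at -0.058, the proteasome subunit PSMB4 at -0.024, the signalling ligase TRAF6 at -0.058 and the chloride channel CLCN1, at 10 to 23 counts per library, at -0.13. The potassium channel gene KCNMA1 had 1 to 19 counts per library and was not tested.

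The complex that cereblon has been reported to chaperone consists of CD147 and MCT1. BSG (Entrez gene 682; chromosome 19, 571277 to 583494) encodes CD147, a membrane glycoprotein that carries monocarboxylate transporters to the cell surface. It had 211, 217, 223 and 215 CPM in DMSO replicates 1 to 4 and 212, 214, 219 and 207 CPM in lenalidomide replicates 1 to 4. Replicate 3 was the highest of both treatments, and the groups overlapped. BSG also had the lowest coefficient of variation of the 7 genes, 2.33% with DMSO and 2.30% with lenalidomide. Counting error alone gives 1.17% at the mean count of BSG and 4.36% at that of MEIS2, and the ranking was not corrected for it. The means were 216.5 ± 5.05 and 213.1 ± 4.91 CPM (SD, n = 4 each), and the log2 fold change was -0.023 with the narrowest interval of the 7, from -0.13 to 0.080.

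SLC16A1 (Entrez gene 6566; chromosome 1, 113454469 to 113500215) encodes MCT1, which moves lactate, pyruvate and protons across the plasma membrane. It had 335, 299.7, 328 and 322 CPM in DMSO replicates 1 to 4 and 306, 306, 351 and 297 CPM in lenalidomide replicates 1 to 4. Lenalidomide replicate 3 was the highest of all 8 libraries, while lenalidomide replicate 4 was the lowest and the other lenalidomide libraries lay between the lowest DMSO value and the other 3. The means were 321.3 ± 15.4 and 314.9 ± 24.7 CPM (SD, n = 4 each), with a log2 fold change of -0.029 and an interval from -0.17 to 0.11. Without lenalidomide replicate 3 it was -0.087, and without lenalidomide replicate 4 it was -0.0019, with an adjusted p of at least 0.977 in each of the 8 fits that left out a library.

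The ratio of SLC16A1 to BSG per length was 0.830, 0.723, 0.770 and 0.784 in DMSO replicates 1 to 4 and 0.754, 0.748, 0.839 and 0.749 in lenalidomide replicates 1 to 4. Transporter RNA was therefore below that of its chaperone partner in each library, and the treatments overlapped. The mean log2 ratio was lower by only a small amount with lenalidomide, with a difference of -0.0077 and an exact 97.1% interval from -0.15 to 0.21 (exact permutation p = 0.886, adjusted over 5 ratios p = 1). Its sign changed in 4 of the 8 comparisons that left out a library.

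SLC16A3 (Entrez gene 9123; chromosome 17, 80175810 to 80219005) encodes MCT4, the lactate exporter of glycolytic cells, which also travels with CD147. It had 76.6, 80.6, 94.96 and 80.2 CPM in DMSO replicates 1 to 4 and 85.8, 85.8, 85.4 and 81.7 CPM in lenalidomide replicates 1 to 4. DMSO replicate 3 lay above every other library and the other 3 DMSO values lay below all lenalidomide values. The means were 83.1 ± 8.13 and 84.7 ± 2.002 CPM (SD, n = 4 each), which gave 0.028 on the log2 scale with an interval from -0.11 to 0.17. Without DMSO replicate 3 it was 0.094 (adjusted p = 0.843 by edgeR), and without DMSO replicate 1 it was -0.013. In GENCODE the exons of SLC16A3 share 482 bases with those of CSNK1D, a casein kinase gene on the opposite strand, and none between the canonical transcripts. Those of BSG share 140 bases with BSG-AS1 and those of SLC16A1 share 231 with SLC16A1-AS1. Both are on the opposite strand, again with none shared between the canonical transcripts.

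The ratio of SLC16A3 to BSG was 0.260, 0.267, 0.305 and 0.268 in DMSO replicates 1 to 4 and 0.290, 0.288, 0.279 and 0.283 in lenalidomide replicates 1 to 4. As for the gene itself, 3 DMSO libraries lay below and 1 above all lenalidomide libraries. The difference of the mean log2 ratio was 0.055 (exact 97.1% interval -0.13 to 0.16, exact permutation p = 0.371, adjusted p = 1). With medians in place of means it was 0.095. Without DMSO replicate 3 it was 0.11 (exact permutation p = 0.0286, adjusted over 5 ratios p = 0.143). As that was the only DMSO library above the lenalidomide ratios, all lenalidomide ratios then lay above the remaining DMSO ones. This p-value is the lowest possible for 3 DMSO against 4 lenalidomide libraries. The balance of MCT1 against MCT4, given by the ratio of SLC16A1 to SLC16A3, was between 2.52 and 3.19 with DMSO and between 2.60 and 3.001 with lenalidomide. Its mean log2 difference was -0.063 (exact 97.1% interval -0.30 to 0.25, exact permutation p = 0.543, adjusted p = 1). It was -0.12 without DMSO replicate 3 and -0.0046 without DMSO replicate 1.

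SLC16A7 (Entrez gene 9194; chromosome 12, 59989810 to 60183636) encodes MCT2, a carrier with high affinity for pyruvate and lactate. It had 40.2, 41.9, 37.7 and 37.4 CPM in DMSO replicates 1 to 4 and 38.6, 35.4, 42.3 and 42.5 CPM in lenalidomide replicates 1 to 4. Lenalidomide held both the lowest and the highest library, so that its values enclosed those of DMSO. The means were 39.3 ± 2.16 and 39.7 ± 3.36 CPM (SD, n = 4 each), and the log2 fold change of 0.013, with an interval from -0.13 to 0.16, changed sign in 4 of the 8 fits without a library.

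Among the 4 proton-coupled transporters MCT1 to MCT4, SLC16A1 made up 68.9% to 73.0% of the RNA per length with DMSO and 69.2% to 71.97% with lenalidomide. SLC16A3 made up 22.9% to 27.3% and 23.98% to 26.8%, and SLC16A7 made up 3.70% to 4.57% and 3.77% to 4.64%. The gene of MCT3, SLC16A8, which is known from the retinal pigment epithelium, had at most 1 count in a library. Among CD147 and its 2 relatives, BSG held 64.9% to 68.3% of the RNA per length with DMSO and 64.7% to 66.6% with lenalidomide, neuroplastin (NPTN) 25.1% to 27.6% and 25.5% to 27.9%, and embigin (EMB) 6.64% to 8.35% and 7.30% to 8.01%. For each of these genes the DMSO and lenalidomide ranges overlapped, and SLC16A1 and BSG held the highest share of their families under both treatments.

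**Figure D3:**
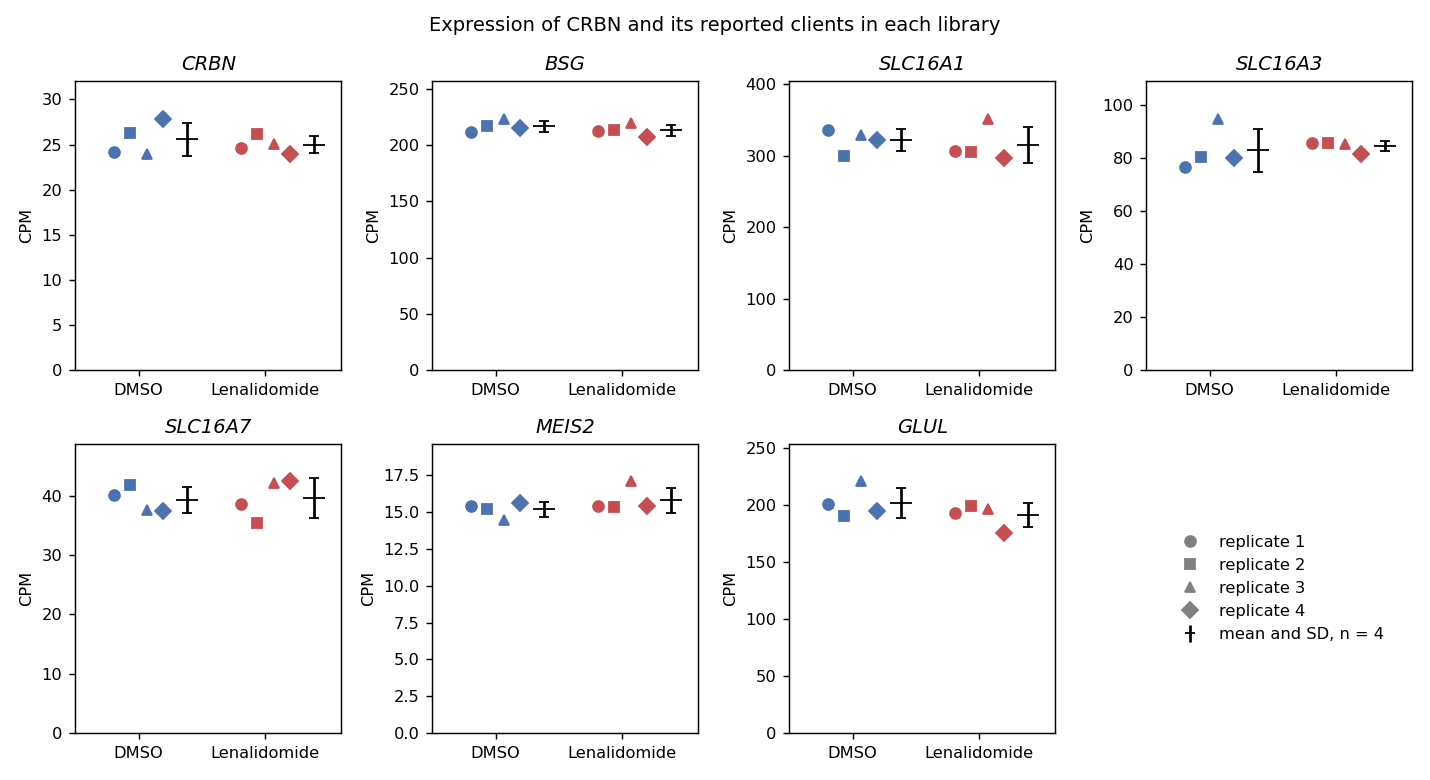
CPM of each of the 7 genes in every library, with 1 panel per gene, linear axes from 0, marker shapes for replicates 1 to 4, and the mean with SD (n = 4) beside each treatment. The values of both treatments overlap in all 7 panels, and DMSO replicate 3 is the highest library for SLC16A3 at 94.96 CPM and for GLUL at 221 CPM.

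Of the 20 other genes listed for the SLC16 family and for lactate use, 12 were tested, 0 passed at the adjusted or the unadjusted threshold, and the median log2 fold change was -0.029. LDHB and LDHA, the subunits of lactate dehydrogenase, had the highest levels at 1059 and 402 CPM per kb, with log2 fold changes of -0.070 and 0.030. PDHA1, the pyruvate dehydrogenase subunit at 54.6 CPM per kb, was at -0.032. Of the transporters, SLC16A13 was at 0.37 (interval from -0.10 to 0.85), at 22 to 45 counts per library, LDHD, a lactate dehydrogenase for the D form with 3 to 18 counts per library, was at 0.31 (interval from -0.59 to 1.22), and SLC16A6 was at -0.085. Of 14 genes of CD147 relatives and partners, 11 were tested and 0 passed at either threshold, with a median of -0.021. The cyclophilins PPIA and PPIB, extracellular ligands of CD147, were at -0.045 and 0.020, the integrins ITGB1 and ITGA3 at -0.026 and 0.039, and the hyaluronan receptor CD44 at 0.11 (interval from -0.015 to 0.24). The matrix metalloproteinases MMP1, MMP2 and MMP9, which CD147 is known to induce in stromal cells, had at most 6 counts in a library. MMP14 of the same list had 140 to 236 counts per library and was at 0.0038.

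MEIS2 (Entrez gene 4212; chromosome 15, 37181405 to 37393500) was the least counted of the 7, with 445 to 592 counts per library. It had 15.4, 15.2, 14.5 and 15.6 CPM in DMSO replicates 1 to 4 and 15.4, 15.3, 17.1 and 15.4 CPM in lenalidomide replicates 1 to 4. All libraries but the third replicates lay between 15.2 and 15.6 CPM, with DMSO replicate 3 the lowest and lenalidomide replicate 3 the highest. The means were 15.2 ± 0.494 and 15.8 ± 0.853 CPM (SD, n = 4 each), and the log2 fold change was 0.058 with an interval from -0.085 to 0.20. It was 0.017 without lenalidomide replicate 3. Within the MEIS family MEIS2 held 68.0% to 71.4% of the RNA per length with DMSO and 65.8% to 75.1% with lenalidomide, and MEIS3 nearly all of the rest, while MEIS1 had at most 7 counts. In GENCODE a lncRNA gene on the opposite strand shares 373 bases with the canonical transcript of MEIS2.

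MEIS proteins bind DNA together with other homeodomain proteins. Of 10 genes listed as MEIS relatives and partners, 8 were tested and 0 passed the adjusted threshold, with a median log2 fold change of -0.015. TGIF1, a repressor of TGF-beta targets and the most expressed of the list at 22.5 CPM per kb, was at 0.022, TGIF2 at -0.11, MEIS3 at 0.090 and PKNOX1 at -0.039.

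GLUL (Entrez gene 2752; chromosome 1, 182347233 to 182361341) encodes glutamine synthetase, which makes glutamine from glutamate and ammonia. Its protein is known to be degraded through the lysines marked above when glutamine is plentiful, and the cells were grown with glutamine in the medium. GLUL RNA was at 201, 191, 221 and 195 CPM in DMSO replicates 1 to 4 and at 194, 199, 197 and 176 CPM in lenalidomide replicates 1 to 4. DMSO replicate 3 was the highest and lenalidomide replicate 4 the lowest library, and the other 6 lay between 191 and 201 CPM without order. The means were 202.0 ± 13.3 and 191.5 ± 10.7 CPM (SD, n = 4 each). The log2 fold change of -0.077, a difference of -5.20%, was the largest of the 7 in size, with an interval from -0.21 to 0.054 (adjusted p = 0.999 by edgeR). Without DMSO replicate 3 it was -0.035 and without lenalidomide replicate 4 it was -0.038.

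**Figure D4:**
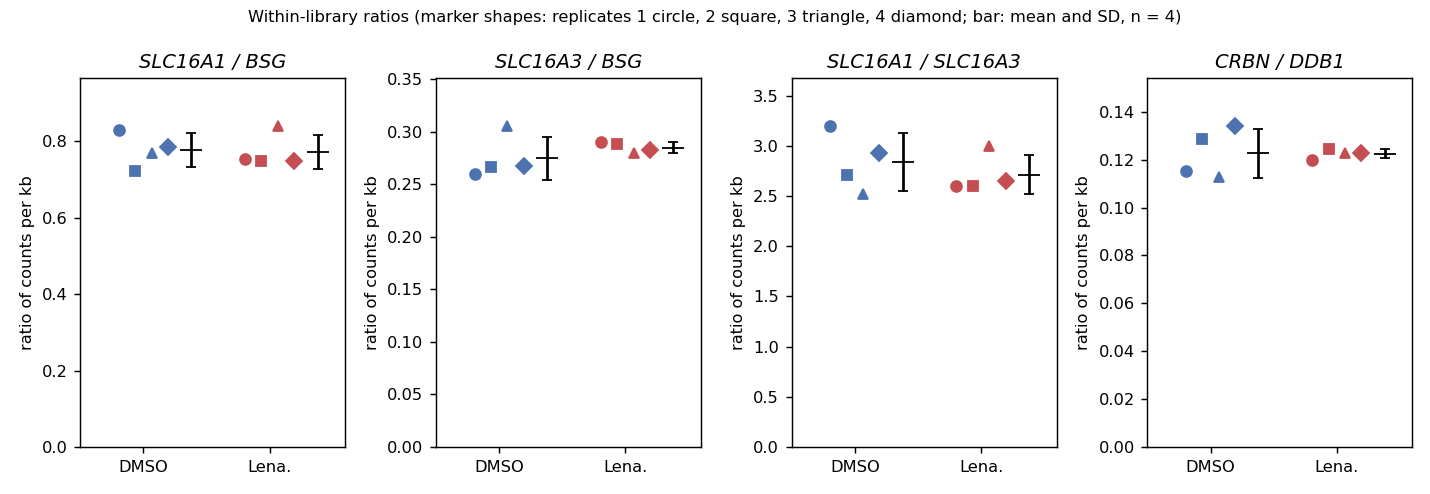
Within-library ratios of 4 gene pairs per kilobase of exonic width (linear axes from 0, 1 marker per library with shapes for replicates 1 to 4, mean and SD of 4 libraries as bars). DMSO and lenalidomide overlap for each pair, and the SLC16A3 to BSG ratio shows DMSO replicate 3 alone above the lenalidomide libraries at 0.305.

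Of 23 genes listed for glutamine transport and use, 21 were tested, 0 passed the adjusted threshold and 15 had a log2 fold change above 0, with a median of 0.012. SLC38A2, a glutamine carrier at 170 CPM per kb, was at -0.020, PSAT1 of serine synthesis at 0.030 and the mitochondrial transaminase GOT2 at -0.0063. CAD, which starts pyrimidine synthesis from glutamine, had the only unadjusted p under 0.05 in this list (adjusted p = 0.999 by edgeR), where 3.26% of all genes were higher at that threshold. It had 118, 114, 136 and 132 CPM in DMSO replicates 1 to 4 and 140, 118, 150 and 173 CPM in lenalidomide replicates 1 to 4, and the groups overlapped through lenalidomide replicate 2. Its log2 fold change was 0.21 (standard error 0.095). CTPS1, which makes CTP with glutamine, was at 0.11, and GFPT2 of hexosamine synthesis was at -0.13. Over all 6 lists, 66 of 82 genes were tested and 0 passed the adjusted threshold.

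**Figure D5:**
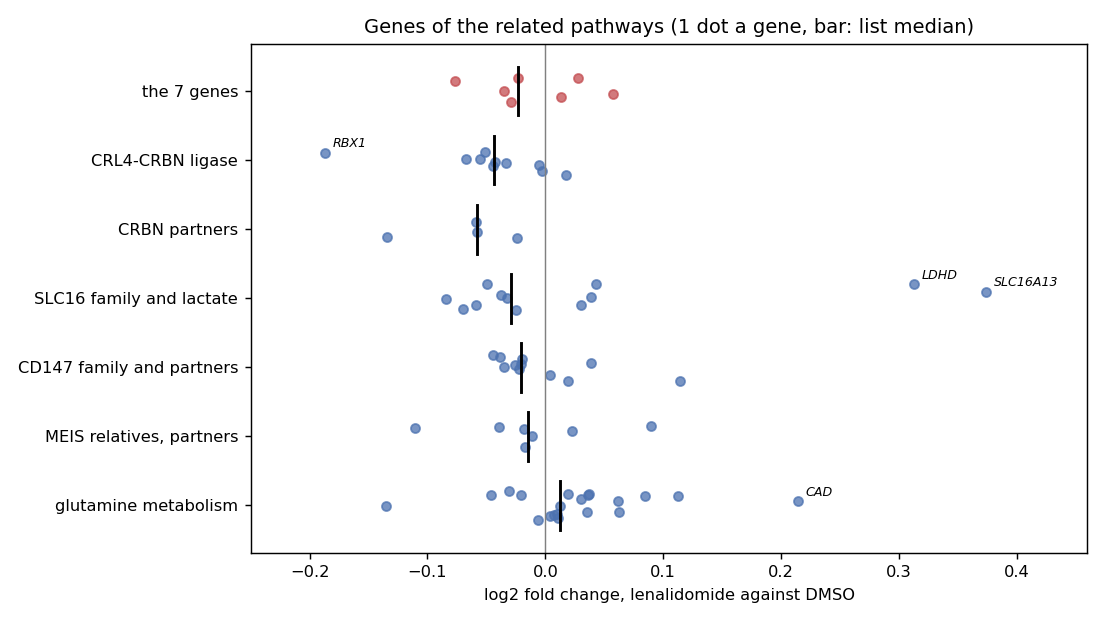
Log2 fold change of lenalidomide against DMSO for the 7 genes (red) and for genes of the 6 related lists (blue), with 1 dot per gene and the median of each list as a bar. List medians lie between -0.058 and 0.012, and the genes named in the plot (RBX1, LDHD, SLC16A13 and CAD) lie farthest out of those drawn, none past the adjusted threshold.

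The 7 genes did not share one pattern over the libraries. DMSO replicate 3 was the highest of 8 for BSG, SLC16A3 and GLUL and the lowest for MEIS2. For CRBN it shared the lowest place with lenalidomide replicate 4, both at 23.99 CPM. Lenalidomide replicate 3 was the highest for SLC16A1 and MEIS2. The GC content of their canonical transcripts was 64.7% for SLC16A3, 62.5% for BSG, 44.7% for GLUL, 41.9% for MEIS2, 40.3% for SLC16A1, 38.2% for CRBN and 33.8% for SLC16A7. The deviation of a library from its treatment's mean was compared with GC content across 8574 genes, which are not independent replicates. The Spearman correlation was -0.35, -0.072, 0.35 and -0.17 in DMSO replicates 1 to 4. It was 0.22, -0.090, -0.33 and 0.20 in lenalidomide replicates 1 to 4. A GC trend was then removed from every library, fitted on deviations from the mean of all 8 libraries over genes of at least 1 CPM. This also takes out a GC-related difference between treatments. With that trend removed, log2 fold changes were 0.018 for SLC16A3, -0.033 for BSG, -0.078 for GLUL, 0.061 for MEIS2, -0.025 for SLC16A1, -0.027 for CRBN and 0.026 for SLC16A7, and 0 of 7 were called.

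Profiles were also compared with those of 9093 other genes of at least 10 CPM, by the root mean square (RMS) difference of mean-centred log2 CPM over the 8 libraries. The profile closest to that of CRBN was TSSC1, at an RMS difference of 0.016 against an RMS deviation of 0.072 for CRBN itself. RNF114, a ubiquitin ligase gene, followed at 0.028. The closest to BSG was DERL1, a factor of protein export from the endoplasmic reticulum, at 0.016 against 0.031 for BSG. For SLC16A1 it was the deubiquitinase gene USP12 (0.022 against 0.081), for SLC16A3 UBAP1 (0.024 against 0.087), for SLC16A7 ZNRF3 (0.025 against 0.090), for MEIS2 LMBR1 (0.024 against 0.061) and for GLUL the spliceosome gene SNRPD3 (0.016 against 0.085). The second nearest were EIF2B2 for BSG at 0.017, STRBP for SLC16A1 at 0.027, USF2 for SLC16A3 at 0.027, PIK3R4 for SLC16A7 at 0.038, TBL1XR1 for MEIS2 at 0.026 and TFIP11 for GLUL at 0.018. Since the 7 genes varied little, these are likenesses in small deviations between libraries. Each is the closest of 9093 genes over only 8 libraries, so small differences can arise by chance. None of the 7 was among the 2 nearest of another. With so many candidates that outcome was likely in any case, and it does not show whether the 7 move together.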

How the data were processed

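Total RNA of 8 Hct116 samples, 4 per treatment, was sequenced after ScriptSeq v2 library preparation. Per the paper's methods the authors aligned reads to hg19 with QuasR (default parameters, spliced alignment) and deposited raw exonic read counts per gene of the UCSC known genes. bcl2fastq 2.17 is named in the submitters' processing notes, and the version of QuasR and a strand setting are not given in the sources used here. The deposited table also holds the exonic width of each gene.

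The analysis used edgeR 4.0.16 under R 4.3.3. Genes were kept by filterByExpr (minimum count 10, minimum total count 15), scaled by TMM and tested with glmQLFit and glmQLFTest (13925 genes, threshold 0.05). Log2 CPM for profiles used a prior count of 2. Counting error allows a coefficient of variation between 0.962% and 4.36% at the mean counts of the 7 genes. Within-library ratios were compared by two-sided exact permutation tests, which cannot give a p under 0.0286 for 4 against 4.

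Alternatives were RLE scaling, DESeq2 1.42.0, a replicate block, dropping the filter (total of 1 count or more), a stricter filter (10 counts or more per library throughout), leaving out each library and, chosen after the data were seen, removal of a GC trend (12712 of 13925 genes had a GC value). Genes named are the 7, and per list the 3 with the highest level and the 3 with the largest change at a mean of 1 CPM or more, the ratio partners, the markers, and the 2 nearest profiles per gene. A few others, such as TRNT1, LDHD, CLCN1, NPTN, EMB, MMP14 and genes with too few counts, were named after their values were seen. The 7 genes and all lists were chosen with earlier results of these data known. Replicates of a treatment differed by more than sampling noise (chi-square per degree of freedom 5.82 to 25.5). Positions and coding sequences come from GENCODE on GRCh37, the same build as hg19. Intronic counts were not used here. Of the lists, 2 genes, and with them 1 of the 5 ratios tested, are not reported or drawn here, while list counts, medians and adjusted p-values include them. Of the genes listed by Entrez number, 70 had no symbol and held 0.0223% of all counts.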

Additional observations from a re-analysis of the deposited data

Results flagged for a closer look

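Of 24 groups of 4 values examined for the 7 genes, 4 ratios and the library totals, 5 had 1 library set well apart from the remaining 3, and about 1.2 such groups arise by chance. Lenalidomide replicate 3 gave 4 of them. MEIS2 reached 17.1 CPM in that library against 15.3 to 15.4 CPM in the other lenalidomide libraries, and SLC16A1 reached 351 CPM against 297 to 306 CPM. The SLC16A1 to BSG ratio was 0.839 there against 0.748 to 0.754, and the SLC16A1 to SLC16A3 ratio was 3.001 against 2.60 to 2.65. Both ratios contain the SLC16A1 count and are not separate from it. For SLC16A3 it was lenalidomide replicate 4 that stood apart, at 81.7 CPM, below the 85.4 to 85.8 CPM of the others. The deviation of lenalidomide replicate 3 ran with GC content at a Spearman correlation of -0.33 over 8574 genes, and its part in these values was not tested.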

How the results depend on the processing

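Over 14 alternatives per gene, 92 of 98 fold changes of the 7 genes had the direction of the reported value and 6 changed sign, all of them when a library was left out. No adjusted p was below 0.784. Among the 8 fits with 7 libraries the fold changes (log2) spanned -0.068 to 0.0085 for CRBN, -0.013 to 0.094 for SLC16A3, -0.020 to 0.064 for SLC16A7, -0.039 to -0.010 for BSG, -0.087 to -0.0019 for SLC16A1, 0.017 to 0.072 for MEIS2 and -0.10 to -0.035 for GLUL. Of 40 ratio differences, 7 changed sign. Without 1 library they ran from -0.048 to 0.025 for SLC16A1 to BSG, 0.029 to 0.11 for SLC16A3 to BSG, -0.12 to -0.0046 for SLC16A1 to SLC16A3 and -0.038 to 0.044 for CRBN to DDB1. The smallest exact permutation p was 0.0286, for SLC16A3 to BSG without DMSO replicate 3 (adjusted over 5 ratios p = 0.143). It is the lowest value possible with 7 libraries, and the library left out was the only DMSO library above the lenalidomide ratios.

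Over all genes, 2 were called by the quasi-likelihood test, 9 with DESeq2, 4 with no filter beyond 1 count, 6 with the replicate block and 1 to 2 without 1 library, and the cause was not tested. Each alternative run called 0 of the genes of the 6 lists that it tested, which were 65 to 81 genes depending on the run. With the replicate block, log2 fold changes of the 7 genes kept their sign and 0 were called. Same-numbered samples correlated at 0.028, -0.024, 0.031 and 0.27 in their deviations, not every sample was closest to its own number, and samples with other numbers ran from -0.29 to 0.17, so the numbers were not taken as pairs.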
